A study of Mus musculus with 6 samples.

Results

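Matrix metalloproteinases (MMP genes), the related ADAMTS proteases, the ADAMTS-like proteins and the tissue inhibitors of metalloproteinases (TIMP genes) were followed in RNA of mouse sciatic nerve. Of 50 protein-coding genes in the table whose symbol starts with Mmp and a number, Timp or Adamts, 32 had a mean of at least 0.5 FPKM (fragments scaled to transcript length and library depth) over the 6 libraries and form the set described here, out of 55335 genes in all. The set holds 10 MMP genes, all 4 TIMP genes, 13 ADAMTS proteases and 5 ADAMTS-like genes. Mmp8, at a mean of 0.508 FPKM, was the lowest gene inside that limit, and Mmp9, at 0.426 FPKM, was the highest outside it. The other 17 genes left out had means of 0 to 0.296 FPKM.

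Polyadenylated RNA came from nerve lysates taken at postnatal day 14, an age at which Schwann cells wrap axons in myelin. The 3 control libraries are of genotype RhoAfl/fl, with the RhoA gene floxed on both alleles. The 3 icKO libraries are RhoAfl/fl ChATCreERT2+, which carry the same floxed alleles and a drug-inducible Cre driven by the choline acetyltransferase locus, active in cholinergic cells such as spinal motoneurons. The comparison asks how removal of the GTPase RhoA from motoneurons is reflected in the nerve that holds their axons. The labels give neither the induction schedule, nor whether control mice received the inducer, nor that the libraries of a group are from separate animals. By the sex genes given below, control replicate 2 is from another animal than control replicates 1 and 3. P-values measure the spread between these libraries, which apart from that library may be technical.

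MMPs and ADAMTS enzymes are zinc proteases that are made as inactive precursors and cut collagens, proteoglycans and other proteins outside the cell. TIMPs bind their active sites and block them, so the balance of enzyme and inhibitor is a common way to describe matrix turnover. ADAMTS-like proteins share the accessory domains of ADAMTS enzymes but lack the protease domain, and several of them bind fibrillin microfibrils. In peripheral nerve these proteins are known from the remodelling of the basal lamina and of the collagen-rich endoneurium after injury.

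As a check of the libraries, Rhoa averaged 37.9 ± 1.24 FPKM in the controls and 34.4 ± 1.75 FPKM in the icKO group (SD, n = 3 each), a log2(FPKM + 1) difference of -0.13 that did not pass (limma, p adjusted by the Benjamini-Hochberg method, here BH-adjusted p = 0.192). Chat reached 0.0123 FPKM in control replicate 1 and had a listed 0 in each other library, and the cell bodies of motoneurons lie outside the nerve. The estimated depth was 17200000 to 20600000 fragments per library. Summed over 8 Schwann cell markers the level was 17298 to 20869.7 FPKM in the controls against 19375 to 21661 FPKM in the icKO nerves, with none of the 8 at 0. Control replicate 2 held Xist at 46.1 FPKM and no Ddx3y, the reverse of the other 5 libraries, and is thus the only female library. Without control replicate 2, 7 genes of the set were higher and 6 lower (14.1% and 14.7% of all genes), against 8 and 8 with all libraries. Control replicate 1 and icKO replicate 3 held the most skeletal muscle RNA, 1230.0 and 1466 FPKM summed over 12 markers against 24.5 to 339 FPKM in the other 4.

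The promoters of 22 of the 32 genes were found in RefSeq (GRCm38.p6), 23 start sites in all, and 5 are shown because the differences described below turn on their genes. Mmp3 was the protease with the largest fall as a ratio, Adamts17 had the largest rise, Mmp28 and Timp3 were an enzyme and an inhibitor that rose, and Adamtsl5 was the most abundant ADAMTS-like gene. Each line gives the 250 bases before the annotated start, 5′ to 3′ on the strand of the gene, with capitals for TGANTCA (the AP-1 site), TATAAA (the TATA box) and GGGCGG (the GC box that Sp1 factors bind), read on either strand.
Mmp3 (chr9:7445572-7445821, plus strand): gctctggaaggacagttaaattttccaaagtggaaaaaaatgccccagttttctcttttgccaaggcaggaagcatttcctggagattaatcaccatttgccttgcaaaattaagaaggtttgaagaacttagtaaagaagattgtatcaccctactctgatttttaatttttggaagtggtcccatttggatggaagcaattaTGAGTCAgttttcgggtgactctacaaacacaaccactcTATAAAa
Adamts17 (chr7:66839485-66839734, plus strand): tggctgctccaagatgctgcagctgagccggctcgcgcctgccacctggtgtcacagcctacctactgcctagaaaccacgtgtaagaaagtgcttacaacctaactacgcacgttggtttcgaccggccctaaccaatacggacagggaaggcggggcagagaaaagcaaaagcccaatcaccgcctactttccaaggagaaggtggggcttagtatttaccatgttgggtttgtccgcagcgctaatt
Mmp28 (chr11:83463041-83463290, minus strand): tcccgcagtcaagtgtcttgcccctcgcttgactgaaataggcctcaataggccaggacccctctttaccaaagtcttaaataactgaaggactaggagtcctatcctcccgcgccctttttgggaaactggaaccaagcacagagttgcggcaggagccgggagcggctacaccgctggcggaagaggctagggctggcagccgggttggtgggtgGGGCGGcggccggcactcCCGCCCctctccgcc
Timp3 (chr10:86300162-86300411, plus strand): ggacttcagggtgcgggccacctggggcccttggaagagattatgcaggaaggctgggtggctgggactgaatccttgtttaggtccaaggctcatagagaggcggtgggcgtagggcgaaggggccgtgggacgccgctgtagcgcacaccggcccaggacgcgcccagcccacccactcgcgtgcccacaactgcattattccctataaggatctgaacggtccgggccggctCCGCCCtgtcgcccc
Adamtsl5 (chr10:80348449-80348698, minus strand): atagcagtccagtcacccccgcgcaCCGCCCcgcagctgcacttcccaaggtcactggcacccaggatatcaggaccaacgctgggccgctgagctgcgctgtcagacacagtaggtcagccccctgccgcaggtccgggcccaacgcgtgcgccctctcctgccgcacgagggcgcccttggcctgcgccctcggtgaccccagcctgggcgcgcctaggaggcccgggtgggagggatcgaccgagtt
Only the Mmp3 window held TGANTCA, which starts 46 bases before the annotated start, together with TATAAA at 7 bases before it. Over all 32851 RefSeq start sites, 6.75% of windows of the same length held TGANTCA, against 1 of the 23 windows of this set (4.35%). TATAAA was found in 3 of the 23 windows, those of Mmp3, Adamts1 and Adamtsl2 (13%, against 12.4% of all windows). GGGCGG was found in 16 of the 23 (69.6%, against 32.7% of all), among them Mmp28, Timp3 and Adamtsl5. The Adamts17 window held none of the 3 motifs. These are matches of letters and not shown to be sites in use.

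**Figure D1:**
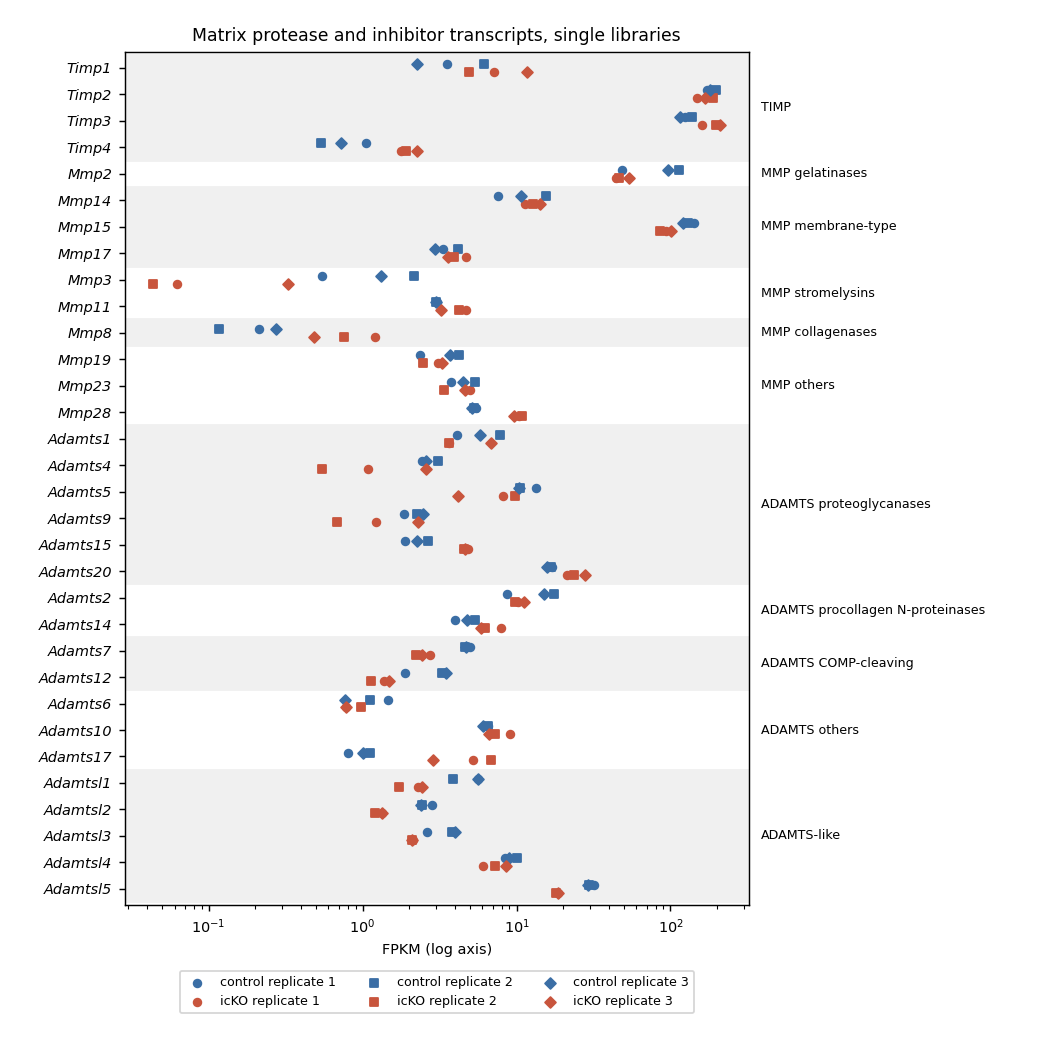
Level of each of the 32 genes in single libraries, in FPKM on a log axis, with control libraries in blue and icKO libraries in red and marker shapes for replicates 1 to 3. Timp2, Timp3, Mmp15 and Mmp2 lie far to the right of the other genes. The groups are apart for 19 of the 32, near the 56.3% of all genes tested.

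By level, which FPKM allows to be set side by side across genes because it is per transcript length, 4 transcripts outweighed all others. Timp2, Timp3, Mmp15 and Mmp2 together made up 74.1% to 77.3% of the summed FPKM of the 32 genes in each library. In control nerves the order was Timp2 (184 ± 13.7 FPKM), Mmp15 (131 ± 10.7 FPKM), Timp3 (126 ± 11.7 FPKM) and Mmp2 (86.2 ± 33.8 FPKM, SD, n = 3 each). Mmp15 and Timp3, neighbours in that order, lay within each other's spread. In icKO nerves Timp3 stood first at 190.2 ± 25.8 FPKM, followed by Timp2 at 169 ± 20.7 FPKM, and their libraries overlapped.

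Set against control, icKO nerves held more Timp3 and Timp4 and more of the proteases Mmp8, Mmp28, Adamts14, Adamts15, Adamts17 and Adamts20. They held less of the proteases Mmp15, Mmp3, Adamts7 and Adamts12 and less of most ADAMTS-like transcripts. Of the 32 genes, 8 rose and 8 fell in a fit across all genes, and 16 did not pass. Without both muscle-rich libraries 7 were higher and 14 lower, beside 15.7% and 20.5% of all genes. With single libraries left out 6 to 9 were higher (13.2% to 18.9% of all genes) and 5 to 10 lower (14.2% to 21.6%). The lowest count of 5 came without control replicate 3, icKO replicate 1 or icKO replicate 2. Of all 14784 genes tested, 41.3% passed with all libraries, 19.8% higher and 21.5% lower. The 16 of 32 called here with all libraries lie near that general share. Control and icKO libraries were apart for 10 genes in the upward and 9 in the downward direction, as they were for 27.5% and 28.8% of all genes (56.3% in both directions). The median log2 difference was -0.17 over the set and -0.02 over all genes. Among the called genes the differences ran from 0.43 to 1.54 in size on the log2(FPKM + 1) scale, on which the change of low genes is compressed. Mmp8 and Mmp3 reached the 0.5 FPKM limit only through the group in which they were high, and without them 7 of 30 rose and 7 fell.

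**Figure D2:**
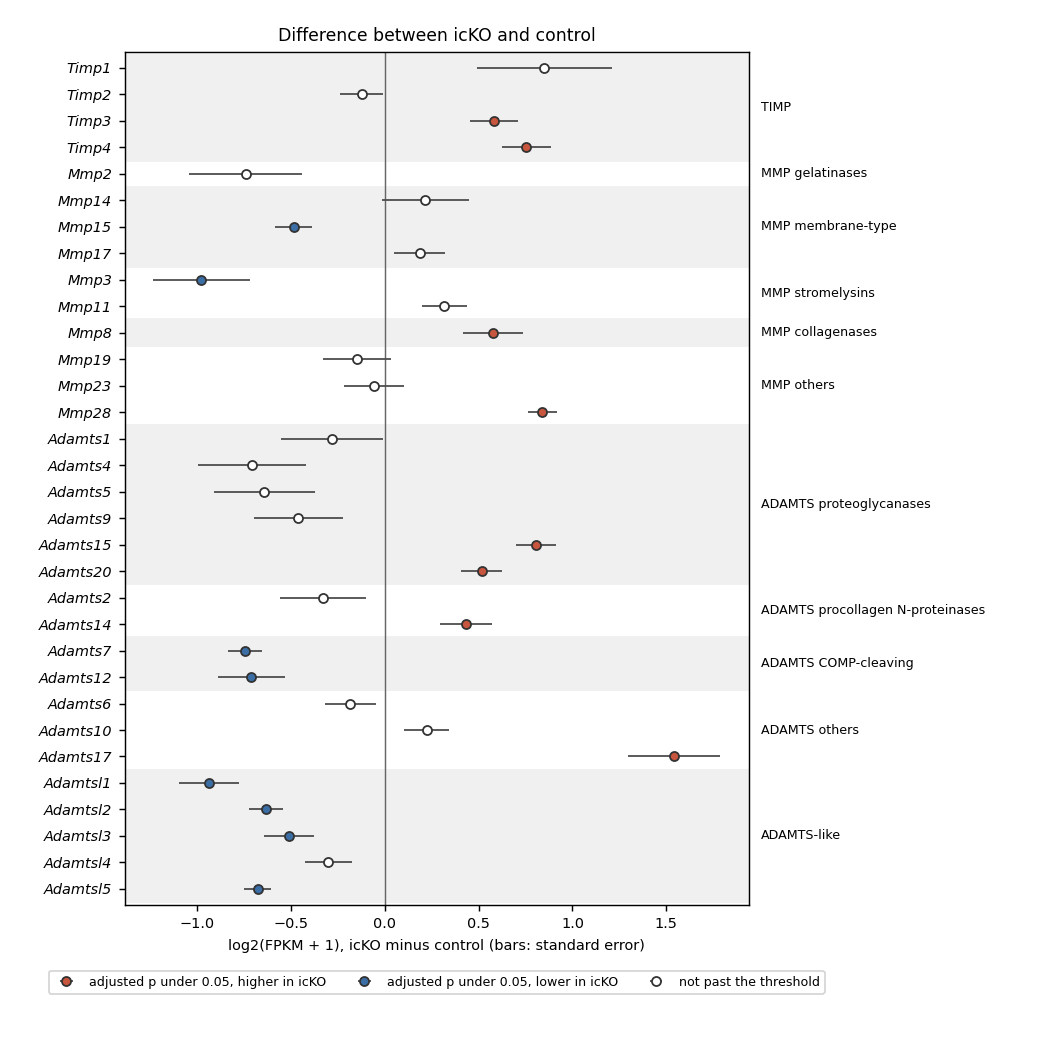
Difference between icKO and control nerves on the log2(FPKM + 1) scale for each gene, by family, with bars for the standard error. Filled points passed an adjusted p of 0.05, red for the 8 higher and blue for the 8 lower in icKO nerves. Of all genes tested, 19.8% were higher and 21.5% lower.

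Of the 4 inhibitors, Timp3 and Timp4 rose and Timp1 and Timp2 did not pass. Timp3 encodes the inhibitor that stays bound to the matrix and also blocks ADAM and ADAMTS enzymes. Control replicates 1 to 3 read 125, 139 and 115 FPKM, and icKO replicates 1 to 3 read 161, 198 and 211 FPKM. Every icKO library lay above every control library, a 1.51-fold difference of the means and a log2 change of 0.58 (SE 0.13, BH-adjusted p = 0.012). Timp3 no longer passed without both muscle-rich libraries, nor with no filter on low values (adjusted p = 0.0607 and 0.0807, range 0.00969 to 0.0807). Timp4, an inhibitor with a narrower range of tissues, read 1.05, 0.539 and 0.719 FPKM in the controls against 1.76, 1.90 and 2.25 FPKM in the icKO nerves. It rose 2.56-fold, a log2 change of 0.75 (SE 0.13, BH-adjusted p = 0.00536), and passed in each of the 20 alternative fits that included it.

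Timp1, the secreted inhibitor known for its induction in injured nerve, scattered within both groups. Its level was 3.53, 6.17 and 2.24 FPKM in the controls against 7.17, 4.94 and 11.7 FPKM in the icKO nerves, with icKO replicate 2 below control replicate 2. The difference of 0.85 (SE 0.36) did not pass (BH-adjusted p = 0.101), and passed in only 1 alternative, without control replicate 2 (adjusted p = 0.0482, range 0.0482 to 0.458). Timp2 both inhibits MMPs and, with Mmp14, takes part in the activation of the Mmp2 precursor. It read 173, 199 and 179 FPKM in the controls against 149, 190.3 and 168 FPKM in the icKO nerves, a difference of -0.12 (SE 0.11, adjusted p = 0.421). Timp1, Timp3 and Timp4 each lie inside a synapsin gene on the opposite strand, and whether the authors counted reads by strand is not given in the sources used here. Syn1, the host of Timp1, shares 0% of the exonic bases of Timp1. It was at 1.54 to 2.55 FPKM in the controls against 0.353 to 0.537 FPKM in the icKO nerves. Syn3 shares 21.3% of the exonic bases of Timp3 and was at 0.316 to 0.738 FPKM, far below Timp3 itself. Syn2, the host of Timp4, was at 0.116 to 0.164 FPKM in the controls against 0.276 to 0.54 FPKM in the icKO nerves and shares 1.53% of the exonic bases of Timp4.

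Summed over the 4 genes, TIMP transcripts read 302, 344 and 298 FPKM in the controls against 319, 395 and 393 FPKM in the icKO nerves, and these groups overlap. The 10 MMP genes summed to 217, 284 and 248 FPKM in control and to 179, 171 and 194 FPKM in icKO libraries, which do not overlap. The ratio of the 2 sums was 1.39, 1.21 and 1.20 in control against 1.79, 2.31 and 2.03 in icKO libraries, a mean of 1.27 ± 0.107 and 2.04 ± 0.264 (SD, n = 3 each). Since these sums pool genes of very unequal level, they follow Timp2, Timp3, Mmp15 and Mmp2, and no test was made on them. They are sums of RNA and hold no measure of protein or of enzyme activity.

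**Figure D3:**
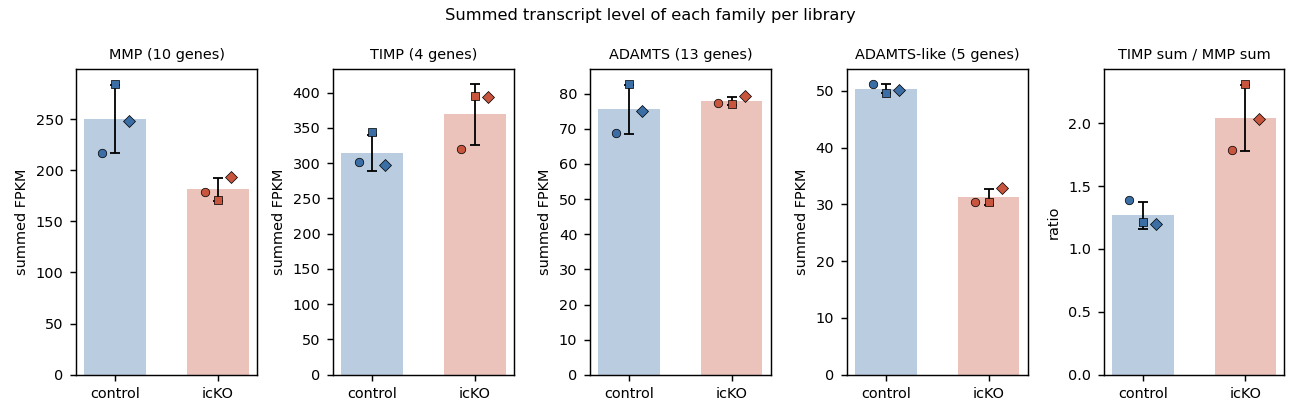
Summed FPKM of each family per library (points), with the mean (bar) and SD (error bar) of 3 libraries a group, and the ratio of TIMP to MMP sums in the last panel. The MMP and ADAMTS-like sums and the ratio do not overlap between groups, while the TIMP and ADAMTS sums do.

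Among membrane-type MMPs, which are anchored at the cell surface, Mmp15 fell. Mmp15 (MT2-MMP) made up 45.9% to 65.5% of the MMP sum in each library. Its level was 142, 130.5 and 121 FPKM in the controls against 94.1, 86.0 and 100.2 FPKM in the icKO nerves, all below the lowest control. The log2 difference was -0.48 (SE 0.10, BH-adjusted p = 0.00927), with a call in all 21 alternatives. Mmp14 (MT1-MMP), a collagenase and the main activator of the Mmp2 precursor, read 7.60, 15.6 and 10.7 FPKM in the controls against 11.3, 12.8 and 14.3 FPKM in the icKO nerves. Those groups overlap (adjusted p = 0.487). Mmp17, held by a lipid anchor, was at 3.48 ± 0.633 and 4.09 ± 0.579 FPKM and did not pass either (adjusted p = 0.303).

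Mmp2 is the gelatinase that digests denatured collagen and basal lamina collagen. It read 48.6, 114 and 96.0 FPKM in the controls against 44.4, 46.4 and 54.0 FPKM in the icKO nerves. Control replicate 1 lay with the icKO libraries and apart from the other 2 controls. The log2 difference of -0.74 (SE 0.30) did not pass with all 6 libraries (BH-adjusted p = 0.0888), while without control replicate 1 it was -1.10 with an adjusted p of 0.00387 (0.00387 to 0.422 over all alternatives). The same library was low in fibroblast markers, whose sum over 8 genes came to 408 FPKM in control replicate 1, 803 and 811 FPKM in the other controls and 319.8 to 347 FPKM in icKO libraries. No fibroblast marker was at 0, 4 of the 8 fell and 1 rose, and their part in the Mmp2 values was not tested. In bulk RNA, fewer cells of a type and less RNA per cell cannot be told apart. The other gelatinase, Mmp9, below the limit of the set, reached 1.80 FPKM in control replicate 2 and lay at 0.0317 to 0.315 FPKM in the other 5 libraries.

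Of the stromelysins and the collagenase, all low, Mmp3 fell and Mmp8 rose. Mmp3 (stromelysin-1), a protease of broad range that also activates other MMPs, read 0.544, 2.14 and 1.32 FPKM in the controls against 0.0624, 0.0436 and 0.327 FPKM in the icKO nerves. The control mean was 9.24 times the icKO mean, the largest ratio of a fall in the set, but the icKO values rest on about 2, 1.5 and 11.5 fragments. Its log2 difference was -0.98 (SE 0.26, BH-adjusted p = 0.0227). The call was lost without control replicate 3, icKO replicate 1 or icKO replicate 2 and with no filter (adjusted p = 0.0678, 0.0689, 0.0698 and 0.165, range 0.00659 to 0.165). Mmp11 (stromelysin-3) read 3.06, 2.99 and 3.0 FPKM in the controls against 4.67, 4.23 and 3.22 FPKM in the icKO nerves. Its groups are apart, yet it did not pass (adjusted p = 0.0762) except in 4 alternatives, among them the fit without icKO replicate 3 (adjusted p = 0.0126, range 0.0126 to 0.273).

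Mmp8, the collagenase that neutrophils store, read 0.213, 0.117 and 0.276 FPKM in the controls against 1.21, 0.752 and 0.481 FPKM in the icKO nerves. This is 4.04-fold by the means and 0.58 (SE 0.16) on the log2 scale (BH-adjusted p = 0.0263), on about 5.8 to 52.3 fragments a library. It did not pass without any 1 of the control libraries or without icKO replicate 2, nor with no filter (adjusted p = 0.0572 to 0.0812, and 0.15, range 0.012 to 0.15). The sum of 10 neutrophil markers was 0.311 to 0.584 FPKM in the controls against 0.44 to 9.74 FPKM in the icKO nerves, with Ly6g at 0 throughout. In icKO replicates 1 to 3 the sum was 1.06, 0.44 and 9.74 FPKM. Only 1 of the 10 markers was high enough to be tested, and it did not pass. The part of neutrophils in the Mmp8 values was not tested.

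Mmp28 (epilysin), one of the MMPs with broad expression in uninjured tissues, rose. It read 5.47, 5.28 and 5.16 FPKM in the controls against 10.4, 10.9 and 9.63 FPKM in the icKO nerves, 1.94-fold with little spread in either group. The log2 difference of 0.84 (SE 0.08) had the smallest adjusted p of the set (BH-adjusted p = 0.000833) and passed in all 21 alternatives. Its exons share 12% of their bases with 1700020L24Rik on the opposite strand, which was at 3.60 to 4.02 FPKM in the controls against 6.03 to 8.09 FPKM in the icKO nerves. Reads of that pair cannot be told apart if strand was not used. Mmp19 (3.42 ± 0.965 and 2.93 ± 0.423 FPKM) and Mmp23, which has a membrane anchor at its start (4.54 ± 0.800 and 4.33 ± 0.851 FPKM), overlapped between groups and did not pass (adjusted p = 0.536 and 0.788). Mmp19 shares 28.3% of its exonic bases with genes on the opposite strand, the largest share in the set, and of these Tmem198b was at 8.79 to 11.7 FPKM, above Mmp19 itself.

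Of the 6 ADAMTS proteases that cut versican and aggrecan, Adamts15 and Adamts20 rose and Adamts1, Adamts4, Adamts5 and Adamts9 did not pass. Adamts20, which in mouse is needed for pigment cells of the coat, was the most abundant ADAMTS transcript of the nerve. It read 16.9, 16.7 and 15.7 FPKM in the controls against 21.1, 23.6 and 27.7 FPKM in the icKO nerves, a log2 change of 0.52 (SE 0.11, BH-adjusted p = 0.0105). It failed in 1 of the 21 alternatives, with no filter (adjusted p = 0.0635, range 0.00521 to 0.0635). Adamts15 read 1.87, 2.66 and 2.24 FPKM in the controls against 4.83, 4.58 and 4.60 FPKM in the icKO nerves. It rose 2.07-fold, 0.81 (SE 0.11) on the log2 scale (adjusted p = 0.00214), in each alternative that included it.

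The 4 proteoglycan-cleaving genes that did not pass had lower icKO than control means, and icKO replicate 3 stood apart in each. Adamts4 (aggrecanase-1) read 2.42, 3.11 and 2.59 FPKM in the controls against 1.08, 0.548 and 2.58 FPKM in the icKO nerves. Adamts9, a close relative of Adamts20, read 1.85, 2.24 and 2.46 FPKM in the controls against 1.21, 0.681 and 2.30 FPKM in the icKO nerves. In both genes icKO replicate 3 lay within the control range and the other icKO libraries below it. With all libraries Adamts4 differed by -0.71 (SE 0.29) and Adamts9 by -0.46 (SE 0.24) on the log2 scale (BH-adjusted p = 0.091 and 0.164). Without icKO replicate 3 both passed (adjusted p = 0.00644 and 0.0172, with ranges of 0.00644 to 0.422 and 0.0172 to 0.594 over all alternatives).

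Adamts1 read 4.09, 7.84 and 5.78 FPKM in the controls against 3.63, 3.65 and 6.86 FPKM in the icKO nerves, again with icKO replicate 3 highest (adjusted p = 0.435), and passed only without both muscle-rich libraries (adjusted p = 0.0226, range 0.0226 to 0.989). Adamts5 (aggrecanase-2), the neighbour of Adamts1 in the genome, showed the opposite order within the icKO group. It read 13.4, 10.6 and 10.4 FPKM in the controls against 8.14, 9.71 and 4.14 FPKM in the icKO nerves, where icKO replicate 3 was lowest. Its groups do not overlap, and its difference of -0.64 (SE 0.27) did not pass (adjusted p = 0.0982) except with the level of muscle markers as a covariate (adjusted p = 0.0262, range 0.0262 to 0.442) and at an adjusted p of 0.1. Adamts9 shares 12% of its exonic bases with genes on the opposite strand, of which A730049H05Rik was at 4.47 to 5.66 FPKM in the controls against 0.244 to 1.80 FPKM in the icKO nerves.

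Of the procollagen N-proteinases, which trim the amino end of fibrillar procollagens, Adamts14 rose by a narrow margin and Adamts2 did not pass. Adamts14 read 3.97, 5.36 and 4.78 FPKM in the controls against 7.96, 6.25 and 5.90 FPKM in the icKO nerves, with groups apart. The difference of 0.43 (SE 0.14) had a BH-adjusted p of 0.0436, which was lost in 9 of 21 alternatives. These were the fits without any 1 library other than icKO replicate 3, without both muscle-rich libraries, with the muscle covariate, with no filter and with a replicate block (adjusted p = 0.0517 to 0.208). Adamts2, whose loss causes a skin fragility disease, read 8.73, 17.6 and 15 FPKM in the controls against 10.2, 9.74 and 11.1 FPKM in the icKO nerves. As for Mmp2, control replicate 1 was the low control library. Adamts2 passed without it (-0.61, adjusted p = 0.0121, range 0.0121 to 0.840) but not with it (adjusted p = 0.286).

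Both genes of the subgroup that cuts the cartilage and tendon protein Comp fell. Adamts7 read 4.99, 4.65 and 4.70 FPKM in the controls against 2.73, 2.21 and 2.42 FPKM in the icKO nerves, a log2 change of -0.75 (SE 0.09, BH-adjusted p = 0.00154) found in all alternatives that included it. Adamts12 read 1.88, 3.28 and 3.50 FPKM in the controls against 1.37, 1.14 and 1.49 FPKM in the icKO nerves. Its fall of -0.71 (SE 0.18, adjusted p = 0.0199) was lost without control replicate 2 or 3 or icKO replicate 1 or 2 and with no filter (adjusted p = 0.0521 to 0.136, range 0.00394 to 0.136). Comp itself, a member of the fibrillin list below, fell from 1.52 ± 0.241 to 0.281 ± 0.0702 FPKM.

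Among the ADAMTS enzymes linked to fibrillin, Adamts17 rose, with the largest difference of the set on the log2(FPKM + 1) scale, while by ratio of the means Mmp3 differed more. Adamts17, mutated in a syndrome of short stature and displaced lenses, read 0.807, 1.12 and 1.01 FPKM in the controls against 5.24, 6.83 and 2.89 FPKM in the icKO nerves. It rose 5.10-fold by the means, 1.54 on the log2 scale (SE 0.25, BH-adjusted p = 0.0039). The lowest icKO library was still above the highest control, and all alternatives that included the gene called it (adjusted p = 0.0012 to 0.0488). Adamts10, mutated in the same kind of syndrome, read 6.54, 6.48 and 6.05 FPKM in the controls against 9.08, 7.20 and 6.64 FPKM in the icKO nerves, apart but not past the threshold (adjusted p = 0.171). Adamts6 was at 1.12 ± 0.349 and 0.848 ± 0.113 FPKM and did not pass (adjusted p = 0.32).

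**Figure D4:**
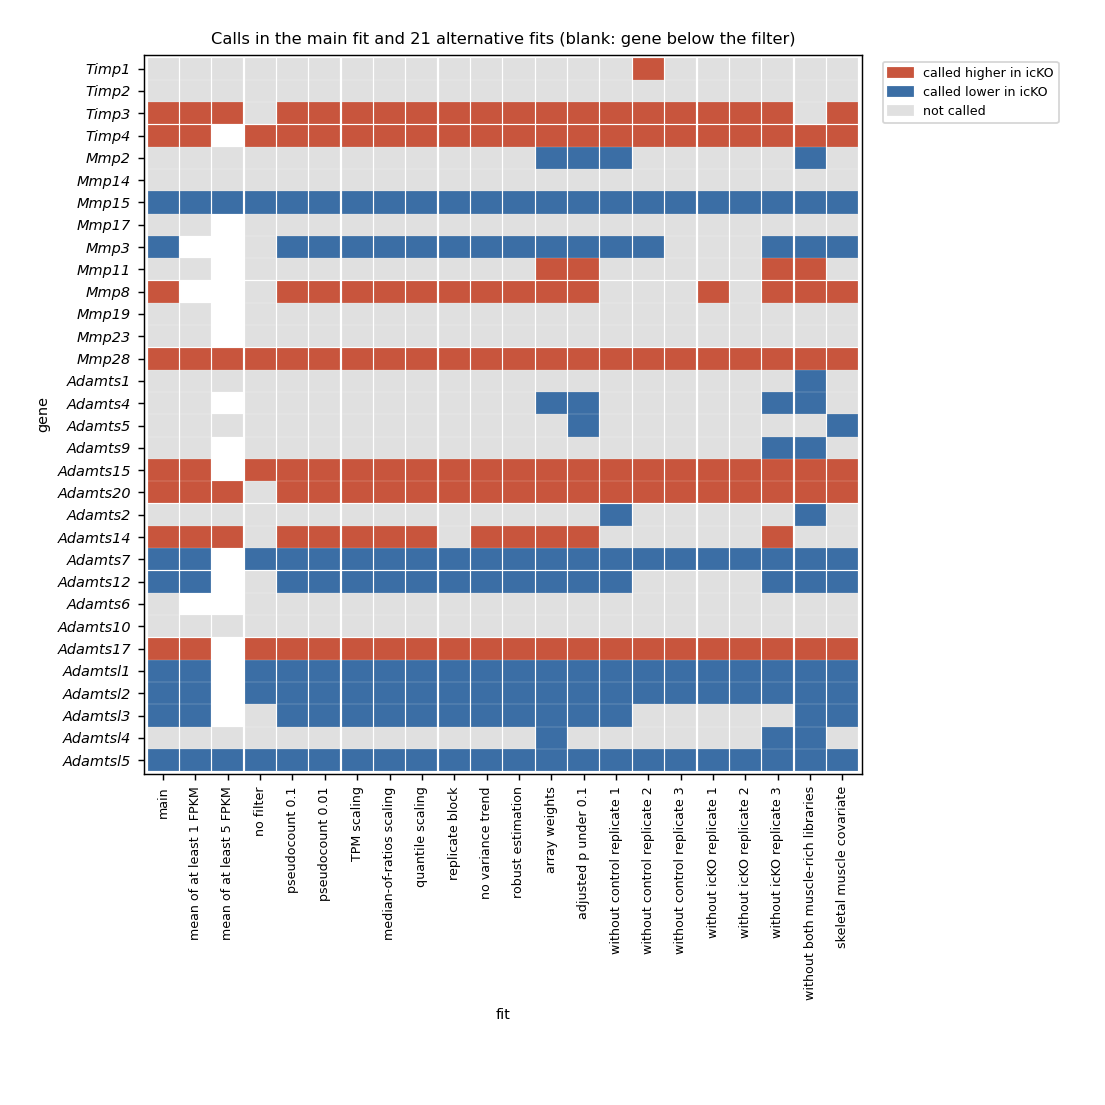
Calls for each gene (rows) in the main fit and 21 alternative fits (columns), red where higher and blue where lower in icKO nerves, grey where not called and blank where the gene was below the filter. Of the 16 genes called in the main fit, 9 kept the call in every alternative that included them.

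Of the 5 ADAMTS-like genes 4 fell and none rose, beside 21.5% of all genes lower, and Adamtsl4 did not pass. Adamtsl5, a fibrillin-binding protein, read 31.7, 29.5 and 29.2 FPKM in the controls against 18.5, 18.2 and 18.6 FPKM in the icKO nerves. That fall of -0.68 (SE 0.07, BH-adjusted p = 0.00109) was the one with the least spread in the set. Adamtsl1 read 5.66, 3.85 and 5.64 FPKM in the controls against 2.29, 1.72 and 2.42 FPKM in the icKO nerves (-0.94, SE 0.16, adjusted p = 0.00473). Adamtsl2, which binds latent TGF-beta binding proteins and is mutated in geleophysic dysplasia, read 2.84, 2.44 and 2.39 FPKM in the controls against 1.34, 1.20 and 1.33 FPKM in the icKO nerves (-0.63, SE 0.09, adjusted p = 0.00266). These 3 passed in every alternative that included them.

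Adamtsl3 read 2.61, 3.80 and 3.97 FPKM in the controls against 2.13, 2.09 and 2.08 FPKM in the icKO nerves. It fell by 0.51 on the log2 scale (SE 0.13, BH-adjusted p = 0.0228), and of the fits that left out 1 library only that without control replicate 1 called it. The others gave adjusted p = 0.0501 to 0.0795, and no filter gave 0.125 (0.0054 to 0.125 over all alternatives). Adamtsl4, mutated in displaced lenses, read 8.42, 10.1 and 8.94 FPKM in the controls against 6.09, 7.29 and 8.48 FPKM in the icKO nerves. It did not pass (adjusted p = 0.101), except with array weights, without icKO replicate 3 and without both muscle-rich libraries (adjusted p = 0.0378, 0.0387 and 0.045, range 0.0378 to 0.369). The 5 genes summed to 51.2, 49.7 and 50.1 FPKM in the controls against 30.4, 30.5 and 32.9 FPKM in the icKO nerves, a mean of 50.3 ± 0.797 against 31.3 ± 1.43 FPKM (SD, n = 3 each).

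Regulators that act on the same enzymes were read from lists of the pathway, of which the 3 genes with the smallest p are named where called. Among 12 other regulators, 1 rose and 4 fell. The membrane protein Bsg, known as an inducer of MMPs, fell from 169.7 ± 9.64 to 101 ± 4.48 FPKM, the proteoglycan Spock2 from 22.8 ± 1.54 to 12.2 ± 1.43 FPKM and the procollagen enhancer Pcolce from 47.4 ± 9.94 to 23.6 ± 2.96 FPKM. The gene that rose was Reck, a membrane-anchored MMP inhibitor, from 13 ± 1.74 to 18.2 ± 1.76 FPKM (BH-adjusted p = 0.0235), and was named after its value was seen. Of 6 tested genes of plasminogen activation only Serpine2, an inhibitor of thrombin and plasminogen activators, passed, with a fall from 29.0 ± 3.80 to 11.2 ± 1.79 FPKM. Of 5 proprotein convertases, the enzymes that remove the inhibitory propeptide of many ADAMTS and membrane-type MMPs, Pcsk4 and Pcsk7 rose and Pcsk6 fell. Furin, the best known of them, read 5.97, 4.71 and 6.60 FPKM in the controls against 9.36, 6.01 and 11.1 FPKM in the icKO nerves and did not pass (adjusted p = 0.0974).

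Of 9 tested astacin and cysteine matrix proteases and their inhibitors, 4 rose and 2 fell. The cathepsin inhibitor Cst3 rose from 156 ± 4.17 to 279 ± 16.8 FPKM, its relative Cst6 fell from 1.06 ± 0.285 to 0.163 ± 0.0188 FPKM and the cathepsin gene Ctsb fell from 109 ± 21.5 to 56.8 ± 5.27 FPKM. Substrate genes moved as well. Of 8 listed lecticans and link proteins 3 were tested, and all 3 passed. Vcan, the versican gene, fell from 4.14 ± 1.22 to 1.19 ± 0.0391 FPKM, Hapln2 fell and Hapln3 rose. Of 9 fibrillar procollagen genes 1 rose (Col11a2) and 4 fell, Col2a1 and Col1a1 with the smallest p among the falls. Of 8 tested fibrillin and microfibril genes 1 rose and 3 fell, Mfap5, Comp and Fbn1 the latter, with Fbn1 at 31.1 ± 6.48 and 21 ± 2.39 FPKM (adjusted p = 0.0371). Hapln3 (0.218 ± 0.0487 and 0.783 ± 0.195 FPKM) reached the 0.5 FPKM limit only through the icKO group. Cst6, Comp and Col2a1 (2.35 ± 1.13 and 0.259 ± 0.123 FPKM) had icKO means under that limit and reached it only through the controls. Shares of calls in these lists run from 16.7% to 100%, on few genes each, beside 41.3% over all genes.

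Marker lists of other cells were read in the same libraries, beside 41.3% of all genes called and 21.5% lower. The summed adipocyte markers were at 466 to 571 FPKM in the controls against 102 to 170.0 FPKM in the icKO nerves (7 of 7 fell), endothelial markers at 108 to 110.0 and 84.6 to 99.0 FPKM (3 of 8 fell, 1 rose) and mural markers at 210.1 to 309 and 145 to 179 FPKM (3 of 8 fell). Cartilage and bone markers were at 43.6 to 65.2 and 21.5 to 28.9 FPKM (3 of 6 tested fell, with Matn1 at 0 in all libraries). Neuronal markers were at 9.46 to 9.76 and 25.6 to 36.3 FPKM (3 of 4 tested rose). The 3 were the neurofilament genes Nefh, Nefm and Nefl. Tubb3, at 2.43 to 3.76 and 2.32 to 3.33 FPKM, did not pass. Snap25, at 0.391 to 0.463 and 0.164 to 0.369 FPKM, was too low to be tested, as were Chat, Rbfox3 and Isl1, at most at 0.0367 FPKM. Macrophage markers overlapped, at 66.9 to 152 and 88.1 to 89.0 FPKM, with 2 of 10 lower. Perineurial (163 to 182 FPKM over all libraries), mast cell (5.53 to 12.5 FPKM) and tendon (82.9 to 158 FPKM) sums also overlapped, with 1 of 6 lower, 1 of 5 tested higher and 1 of 3 tested lower. The mast cell marker that rose was Kit, at 0.908 to 1.56 and 2.89 to 5.78 FPKM. The 4 others tested, Cpa3, Mcpt4, Cma1 and Tpsb2, had lower icKO than control means and did not pass. The part of these cells in the protease and inhibitor values was not tested.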

How the data were processed

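The authors deposited 1 table of FPKM values (fragments scaled to transcript length and library depth) for 55335 Ensembl genes in 6 libraries. Per the submitters' processing notes the build was GRCm39, and StringTie 1.3.1c, STAR, DESeq2 1.16.1 and FastQC 0.11.2 are listed without their roles. Symbols and biotypes came from GENCODE M21 (GRCm38) by gene ID, for 55154 IDs. Exon overlaps, host genes and transcript lengths were also read from it, thus on GRCm38 and not on the build of the table. Differences in log2(FPKM + 1) were tested in limma 3.58.1 (R 4.3.3) with a variance trend. Genes entered at a mean FPKM of 0.5 or more, 14784 in all, so that every member was tested. P-values are two-sided and Benjamini-Hochberg adjusted over these genes, and rose and fell mean an adjusted p under 0.05. All adjusted p-values in the text come from this procedure. No counts are given, so library depth was read off the smallest FPKM steps of genes with 1 transcript, and fragments per gene from it and the median length of coding transcripts, so both are approximate. FPKM of a gene falls when abundant transcripts take a larger share, and StringTie values of overlapping genes are estimates. The fit was tested on simulated data. The 21 alternatives changed the filter, the pseudocount, the scaling, the variance model or the threshold, added a replicate block or the mean level of 12 skeletal muscle markers as a covariate, or left out libraries. The members, lists and alternatives were chosen with earlier results of these data known. Values are printed by library for members called with groups apart, for a fixed set of well known members and for those whose call changed when 1 library was left out.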

Additional observations from a re-analysis of the deposited data

How the results depend on the processing

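Of the 16 calls among the 32 genes, 9 held in every alternative that included the gene and 11 whichever library was left out. The direction of the differences was not reversed for any called gene in these alternatives. With no filter on low values (55335 genes tested) 3645 genes passed, and 4 members were higher and 5 lower. With a mean of at least 5 FPKM 3308 of 6888 genes passed. Of the 15 members tested 4 were higher and 2 lower, beside 24.6% and 23.4% of the tested genes. Leaving out 1 library gave 4055 to 5991 called genes. Of the members 6 to 9 were then higher (13.2% to 18.9% of all genes) and 5 to 10 lower (14.2% to 21.6%). Without both muscle-rich libraries 7 members were higher and 14 lower, beside 15.7% and 20.5% of all genes. The cause of these shifts was not tested, except that fewer or more genes are tested under the other filters. With TPM, median-of-ratios or quantile scaling 8 members were higher and 8 lower, beside 19.5% to 21% and 20.8% to 21.6% of all genes. Under TPM and median-of-ratios scaling the sums by family moved by less than the spread of the libraries. The replicate numbers are shared by the groups, but same-numbered libraries did not deviate together (r of -0.0997, 0.0382 and -0.0607 over genes). With 3 libraries a group this cannot show whether they shared a batch. With the replicate block 5015 genes passed, 7 members higher and 8 lower (16.5% and 17.4% of all genes), and Adamts14 lost its call. Genes near 0.5 FPKM rest on few fragments, which limits what can be said of Mmp3 and Mmp8.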
